A study of Mus musculus with 43 samples.

Results

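The protein arginine methyltransferase family was described here across the expression and chromatin libraries of a mouse spermatogenesis study. Its 9 members, Prmt1, Prmt2, Prmt3, Carm1, Prmt5, Prmt6, Prmt7, Prmt8 and Prmt9, were taken by their GENCODE vM21 symbols, and all 9 were found among the 55401 genes of the deposited expression tables. The RNA libraries came from mice at postnatal day 7 (P7). Whole testes gave 3 libraries labelled WT and 3 labelled Prmt1-dKO, and cells sorted as GFP-positive from dissociated testes gave 2 WT and 2 Prmt1-dKO libraries. The dKO mice were on a C57BL/6J background and carried Ddx4-CreERT2 with Prmt1 lox/lox, and tamoxifen induced the recombinase. Ddx4 is expressed in germ cells, so the design targets these and leaves the somatic cells with floxed, unrecombined Prmt1. Recombination was not measured in these files. The sorting protocol of the study names heterozygous Prmt1 +/lox; Ddx4-GFP-CreERT2 controls, whereas the labels of the sorted controls give WT. The whole-testis libraries carry a spermatogonial cell type in their labels, but their protocol describes RNA of the entire testis. Chromatin was profiled by CUT&Tag, in which an antibody directs a transposase to a histone mark, on cells of tubule suspensions at P7 and at P14. The 33 peak lists covered H4R3me2a, H3R2me2a, H3R8me2a, H4R3me1, H4R3me2s, H3K27ac and H3K4me3 in WT at both ages, with H4R3me2s also in the dKO at P7. The P14 lists are called spermatogonia in their titles and spermatocytes in their cell type label.

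Arginine methyltransferases move methyl groups from S-adenosylmethionine to the side chain nitrogens of arginine. All types first make monomethylarginine. Type I enzymes (Prmt1, Prmt2, Prmt3, Carm1, Prmt6 and Prmt8) go on to asymmetric dimethylarginine, type II enzymes (Prmt5 and Prmt9) to symmetric dimethylarginine, and the type III enzyme Prmt7 stops at the monomethyl form. Among histone sites, H4R3me2a is mainly the product of Prmt1, H3R2me2a that of Prmt6, and H4R3me2s that of Prmt5. Because asymmetric and symmetric enzymes draw on the same arginines, loss of the main type I enzyme raises the question whether other members take its place. In the testis Prmt5 is known for its need in germ cell development.

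Prmt1 lies at chr7:44975989-44986568 on the minus strand of GRCm38, with 14 annotated transcripts. The floxed allele removes exons 4 and 5, which are shown because they are what the recombinase removes. Counted on Prmt1-202, exon 4 spans chr7:44981738-44981893 and exon 5 chr7:44981587-44981650, both within the coding sequence. Exon 4 encodes part of the fold that binds S-adenosylmethionine. They make up 220 of its 1508 bases, or 14.6%. Of the 14 transcripts, 7 hold both exons whole, 2 hold exon 5 with part of exon 4, and 5 hold neither. Their sequences follow, read from the transcribed strand.
Prmt1 exon 4: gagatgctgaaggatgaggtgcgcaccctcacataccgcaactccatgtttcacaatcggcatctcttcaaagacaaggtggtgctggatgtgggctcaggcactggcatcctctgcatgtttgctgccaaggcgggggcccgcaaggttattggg
Prmt1 exon 5: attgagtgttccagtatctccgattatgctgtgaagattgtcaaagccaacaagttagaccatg

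The other members lie on chromosomes 3, 6, 7, 8, 9, 10 and 14. Carm1 is at chr9:21546894-21592623 and Prmt3 at chr7:49778346-49858265, both on the plus strand, with 10 and 9 annotated transcripts. Prmt7 (chr8:106210936-106252794, 7 transcripts) and Prmt9 (chr8:77549397-77581338, 5 transcripts) share a chromosome and the plus strand. On the minus strand lie Prmt2 (chr10:76207222-76237865, 9 transcripts), Prmt5 (chr14:54507187-54517525, 7 transcripts), Prmt6 (chr3:110246109-110250998, 3 transcripts) and Prmt8 (chr6:127689011-127769472, 1 transcript).

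The sequence before the start site differed among members, and the windows of the main type I enzyme, the type II enzyme Prmt5 and the type III enzyme Prmt7 are shown for this contrast. Each holds the 250 bases before the RefSeq start on GRCm38.p6, and capitals mark a GC box (GGGCGG or its reverse complement CCGCCC, the core of Sp1 family sites). RefSeq windows were at hand for 8 members.
Prmt1 at chr7:44986421-44986670, minus strand: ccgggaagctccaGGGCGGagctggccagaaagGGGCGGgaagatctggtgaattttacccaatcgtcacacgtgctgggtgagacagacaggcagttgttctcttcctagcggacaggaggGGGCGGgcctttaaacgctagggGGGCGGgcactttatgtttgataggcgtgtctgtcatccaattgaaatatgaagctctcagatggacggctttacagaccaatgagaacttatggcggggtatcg
Prmt5 at chr14:54517471-54517720, minus strand: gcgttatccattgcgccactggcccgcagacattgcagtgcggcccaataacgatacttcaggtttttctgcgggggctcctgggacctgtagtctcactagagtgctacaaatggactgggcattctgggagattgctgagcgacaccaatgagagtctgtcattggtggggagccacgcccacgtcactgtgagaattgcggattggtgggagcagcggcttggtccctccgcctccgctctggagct
Prmt7 at chr8:106210804-106211053, plus strand: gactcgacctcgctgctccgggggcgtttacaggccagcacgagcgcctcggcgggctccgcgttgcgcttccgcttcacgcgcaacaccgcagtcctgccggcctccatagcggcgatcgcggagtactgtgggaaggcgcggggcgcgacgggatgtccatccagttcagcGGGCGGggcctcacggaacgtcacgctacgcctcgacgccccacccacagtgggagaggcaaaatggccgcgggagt
The Prmt1 window held 4 GC boxes, whose first bases lay 237, 217, 128 and 105 bases before the start. Prmt8 held 2, Prmt2, Prmt3 and Prmt7 held 1 each, and Prmt5, Prmt6 and Prmt9 held 0. Of all 32851 promoter windows of this length, 32.7% held a GC box. CCAAT on either strand occurred 4 times before Prmt5, 3 times before Prmt1, once before Prmt2 and Prmt3 and not before the other 4 members, against 33.8% of all windows with a copy. The palindrome CACGTG was found before Prmt1 and Prmt3 (6.02% of all windows) and TATAAA, on either strand, before Prmt2 (12.4%). CpG dinucleotides numbered 37 before Prmt8 and 35 before Prmt7. The other 6 members had 13 to 17, with a median of 6 and quartiles of 2 and 16 over all windows. A match is a description of the letters alone.

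Prmt1 was by far the most abundant member. Its level in TPM, a unit of transcript abundance scaled for transcript length and library total, was 652, 604 and 638 in the 3 WT testes. The dKO testes gave 410, 433 and 402 TPM. In sorted cells the values were 350 and 239 TPM in WT and 179 and 151 TPM in the dKO. In both assays every dKO library lay below every WT library, as for 26.4% of all genes tested on TPM in testes and 27.9% in sorted cells. The mean fell to 65.8% of WT in testes (631 ± 24.9 against 415 ± 16.0, SD, n = 3) and to 56.0% in sorted cells (294 ± 78.3 against 165 ± 19.7, SD, n = 2). The expected counts behind these levels were 3540, 3572 and 3927 in WT testes and 1996, 2496 and 2484 in dKO testes. They were 4182 and 2852 in sorted WT cells and 1746 and 1307 in sorted dKO cells. Prmt1 RNA was thus still measured in every dKO library. A deleted allele can give a shortened transcript that is counted as Prmt1, so the level alone does not measure deletion. The part of such transcripts was not tested. In bulk testes, fewer cells of a type and less RNA per cell cannot be told apart, nor can Prmt1 RNA of somatic cells and of germ cells.

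The estimated mean length of Prmt1 transcripts, which the quantification derives from the transcripts each library supports, was also lower in the dKO. It was 829.68, 834.31 and 837.16 bases in WT testes and 804.27, 822.31 and 798.37 bases in dKO testes. Sorted WT cells gave 991.24 and 984.63 bases, and sorted dKO cells 859.02 and 857.69 bases. The groups did not overlap in either assay, with means of 834 ± 3.78 and 808 ± 12.5 bases in testes (SD, n = 3) and 988 ± 4.67 and 858 ± 0.94 bases in sorted cells (SD, n = 2). The two-sided exact permutation test gave p = 0.1 for testes, the smallest p that 3 against 3 libraries allow. It gave 0.333 for sorted cells, the smallest for 2 against 2. Length also separated the genotypes for Prmt6 in testes (dKO above) and for Prmt9 in sorted cells (dKO below). Of all genes tested, 9.11% were below and 7.95% above by length in testes, and 13.5% and 21.2% in sorted cells. The estimate is made over annotated transcripts, and the part of the deletion in this shift was not tested.

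**Figure D1:**
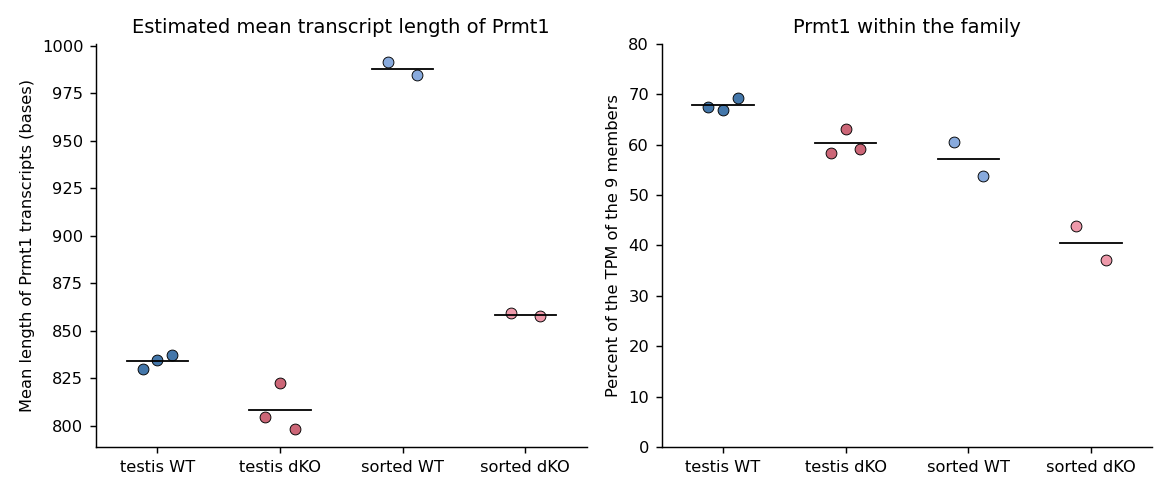
Left, estimated mean length of Prmt1 transcripts in bases for each RNA library. Right, Prmt1 as a percent of the summed TPM of the 9 members. Points are libraries and lines are group means, and the length axis does not start at 0. Length was lower in every dKO library than in every WT library of the same assay, and the share was lowest in sorted dKO cells (40.5%).

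Prmt1 alone made up 67.8 ± 1.21% of the summed TPM of the family in WT testes and 60.2 ± 2.53% in dKO testes (SD, n = 3). In sorted cells it made up 57.2 ± 4.78% in WT and 40.5 ± 4.88% in the dKO (SD, n = 2). Among genes at 1 TPM or more it stood at percentile 98.8 in WT testes and 96.2 in sorted WT cells. Prmt7 was the next member by mean in all 4 groups. The mean of Prmt1 was 11.2 times that of Prmt7 in WT testes, 7.04 times in dKO testes, 3.54 times in sorted WT cells and 2.04 times in sorted dKO cells. In each group the lowest Prmt1 library was above the highest Prmt7 library.

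The other type I enzymes were expressed at moderate levels or, for Prmt8, barely. Carm1, a coactivator that methylates histone H3 and splicing factors, was at 62.0, 52.9 and 53.1 TPM in WT testes and at 52.6, 37.8 and 49.2 TPM in dKO testes. In sorted cells Carm1 was at 20.8 and 6.27 TPM in WT and at 5.98 and 3.49 TPM in the dKO. The sorted WT libraries held nearly equal Carm1 counts, 259 and 237, but their estimated mean transcript lengths were 1024 and 2692 bases. Their TPM values thus differed mainly through the assigned length. Prmt6, which makes H3R2me2a, was at 25.9, 23.0 and 22.1 TPM in WT testes and at 19.5, 15.01 and 19.1 TPM in dKO testes. Sorted cells held 11.5 and 9.86 TPM of Prmt6 in WT and 7.09 and 6.56 TPM in the dKO. For both genes all dKO libraries were below all WT libraries in each assay, which on TPM holds for 26.4% and 27.9% of all genes. Prmt2, a weak enzyme that binds nuclear receptors, was at 46.2, 45.0 and 44.5 TPM in WT testes and at 42.5, 39.8 and 34.3 TPM in dKO testes. In sorted WT cells it was listed at 0 in the first library and at 21.2 TPM in the second, against 24.1 and 34.4 TPM in the dKO. Prmt3, which methylates ribosomal protein S2, ranged from 31.6 to 38.8 TPM in WT testes and from 25.02 to 35.0 TPM in dKO testes. Its sorted WT libraries were at 40.2 and 18.2 TPM and its sorted dKO libraries at 41.1 and 52.3 TPM.

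Prmt8, a membrane-bound enzyme known from brain, did not exceed 0.52 TPM in any library. Its expected counts were 4, 10 and 2 in WT testes, 2, 13 and 4 in dKO testes, 0 and 0 in sorted WT cells and 0 and 6 in sorted dKO cells. No genotype difference of Prmt8 was detectable at this depth, and it did not pass the filter on low counts in either genotype comparison.

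Prmt5, the main symmetric enzyme, was at 56.7, 57.5 and 52.4 TPM in WT testes and at 56.6, 58.4 and 51.9 TPM in dKO testes. In sorted cells Prmt5 was at 55.6 and 49.4 TPM in WT and at 48.7 and 54.9 TPM in the dKO, so its TPM groups overlapped in both assays. Prmt9, which methylates the splicing factor Sf3b2, ranged from 25.5 to 27.6 TPM in WT testes and from 23.0 to 25.9 TPM in dKO testes. Its sorted WT libraries were at 22.7 and 9.95 TPM and its sorted dKO libraries at 22.4 and 22.2 TPM. Prmt7 was at 56.6, 58.1 and 54.9 TPM in WT testes and at 59.97, 53.4 and 63.5 TPM in dKO testes. Sorted WT cells held 76.3 and 89.9 TPM of Prmt7 and sorted dKO cells 78.6 and 82.6 TPM.

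**Figure D2:**
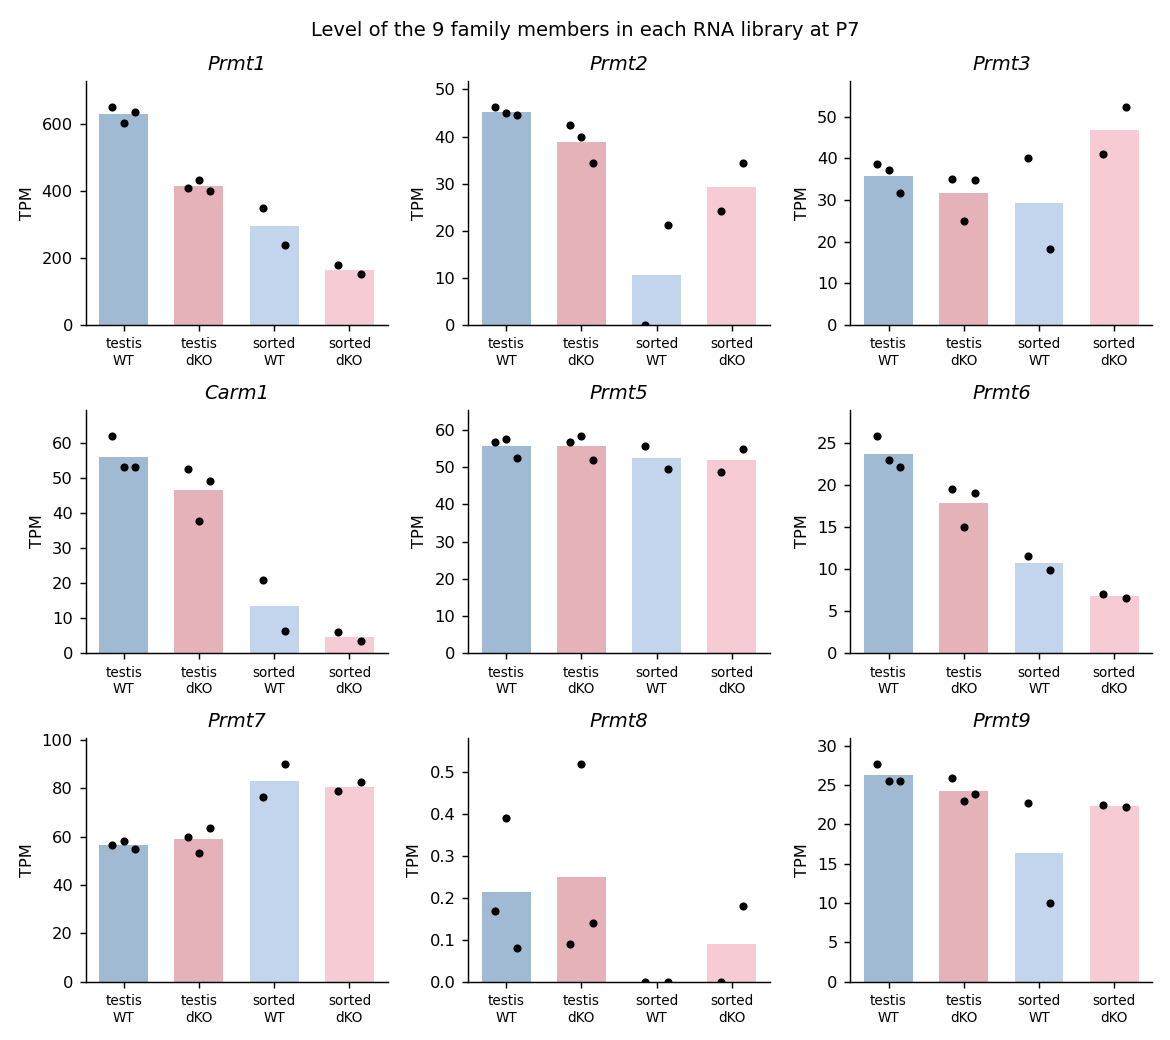
TPM of each member in each RNA library at P7, in a panel per gene with its own axis from 0. Points are libraries and bars are group means. Prmt1, Carm1 and Prmt6 were lower in every dKO library of both assays, and Prmt8 did not exceed 0.52 TPM.

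Ordered by mean TPM, WT testes ran Prmt1, Prmt7, Carm1, Prmt5, Prmt2, Prmt3, Prmt9, Prmt6 and Prmt8. Prmt7, Carm1 and Prmt5 overlapped in turn with their neighbours, as did Prmt9 with Prmt6, and every other step separated the libraries completely. Sorted WT cells ran Prmt1, Prmt7, Prmt5, Prmt3, Prmt9, Carm1, Prmt6, Prmt2 and Prmt8. Here the first 3 steps separated the libraries, and from Prmt3 down each member overlapped the next. In sorted dKO cells Prmt2 stood between Prmt3 and Prmt9, and Prmt5 and Prmt3 were the only neighbours that overlapped. Carm1 moved from the third place in WT testes to the sixth in sorted WT cells.

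Whether another enzyme rose where Prmt1 fell was read from the members themselves. On counts simulated from these libraries, the testis fit recovered 75 of 100 genes changed 2-fold. The sorted fit recovered 28 of 100 changed 4-fold and 45 of 100 changed 16-fold. A member that did not pass is thus not shown to be unchanged. In whole testes Prmt1 was the only member of 8 tested that passed the genotype test, and none was higher. Its log2 fold change was -0.49 (SE 0.13, adjusted p = 0.0334, edgeR quasi-likelihood test). Of all 16554 genes tested, 10.6% passed as higher and 8.51% as lower, and these shares stand beside 0 higher and 1 lower of 8 members. The same test put Prmt7 at 0.21 (SE 0.10, adjusted p = 0.190), Prmt5 at 0.13 (adjusted p = 0.466) and Prmt9 at 0.07 (adjusted p = 0.650). Of the type I enzymes, Carm1 had -0.24 (SE 0.10, adjusted p = 0.121, edgeR), Prmt6 -0.20 (adjusted p = 0.259), Prmt2 -0.08 (adjusted p = 0.726) and Prmt3 -0.04 (adjusted p = 0.847). The call for Prmt1 did not hold when any of 5 of the 6 libraries was left out in turn (adjusted p from 0.0696 to 0.105). It held only without the second dKO library (-0.63, adjusted p = 0.000150), with the direction kept in every case. The call was also lost with the replicate block and with both assays in 1 fit. The labels do not say whether libraries came from separate mice, so p-values measure the spread between these libraries.

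In sorted cells the Prmt1 log2 fold change was -0.88 (SE 0.26, unadjusted p = 0.0238, adjusted p = 0.133, edgeR). No member and no gene of 16443 passed, so percent called was 0 in either direction, whereas 2702 genes were higher and 1209 lower at an unadjusted p under 0.05. With DESeq2, 2460 of the 24498 genes fitted passed on adjusted p alone, and Prmt1 was the only one of 9 members among them (-0.93, adjusted p = 0.0172). Prmt7 had 0.21 (SE 0.15) and Prmt5 0.19 (SE 0.18), close to the median of 0.15 over all genes. Prmt3 had 0.78 (SE 0.46, adjusted p = 0.416, edgeR) and Prmt9 0.56 (SE 0.44, adjusted p = 0.560). Prmt6 had -0.49 (SE 0.56) and Carm1 -0.46 (SE 0.75). Prmt2 is given by its levels above, since its fitted value rests on a library at 0. Either sorted WT library decided these calls. Without the first, Prmt1 (-0.57, adjusted p = 0.0268), Prmt3 (1.54) and Prmt9 (1.20) passed, 3 of 8 members against 51.2% of all genes in that fit. Without the second sorted WT library, Prmt1 (-1.10, adjusted p = 1.46e-05) and Prmt2 passed, 2 of 8 against 43.2%. In both cases the lone WT library was assumed to vary like the dKO libraries.

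Read on CPM, here counts over library totals adjusted by the TMM factors of edgeR, which do not depend on transcript length, members separated the genotypes in both directions. In testes every dKO library was above every WT library for Prmt5 and Prmt7, as for 20.9% of all genes, and below for Prmt1, Carm1 and Prmt6, as for 19.9%. In sorted cells Prmt2, Prmt3, Prmt5, Prmt7 and Prmt9 were above (36.3% of all genes) and Prmt1, Carm1 and Prmt6 below (20.3%). Prmt5 and Prmt7 were thus above in both assays, which 7.88% of the 14171 genes tested in both assays also were, and Prmt1, Carm1 and Prmt6 below in both, as were 4.59%. The separation of several members rested on the scale. On TPM the groups of Prmt5 and Prmt7 overlapped in both assays and those of Prmt9 in sorted cells, while Prmt2 was below in dKO testes. On TPM no member was above WT in testes (12.4% of all genes), and Prmt2 and Prmt3 were above in sorted cells (28.1%). On counts over the library total with no TMM factor, sorted Prmt3, Prmt5, Prmt7 and Prmt9 overlapped and Prmt2 alone was above (31.2% of all genes). In testes Prmt9 joined Prmt5 and Prmt7 above WT on that scale (24.0%). For Prmt1, Carm1 and Prmt6 the dKO was below WT in both assays on these 3 scales, with library totals alone giving 16.7% of all genes below in testes and 25.6% in sorted cells. On TMM-scaled counts per kilobase Carm1 overlapped, at 34.2 in the second WT testis and 35.4 in the third dKO testis. Its second sorted WT library was at 4.73 and its first sorted dKO library at 6.00. There Prmt1 and Prmt6 were below and Prmt5 and Prmt7 above in both assays. No share over all genes was taken on that scale. Summed without Prmt1, the other 8 members came to 299 ± 14.9 TPM in WT testes and 274 ± 19.7 TPM in dKO testes (SD, n = 3), and to 216 ± 15.8 and 242 ± 20.2 TPM in sorted cells (SD, n = 2).

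Markers of cell types moved with the genotype in both assays. In testes the summed TPM of 14 Sertoli markers was 7237 to 7865 in WT and 5074 to 5566 in the dKO, and that of 9 Leydig markers 970 to 1087 and 457 to 504. The 7 peritubular markers summed to 978 to 1041 and 349 to 561, while the sums of 14 germ cell markers overlapped (893 to 1073 and 809 to 989). Singly, 13 of these overlapped on TPM, and Ddx4, whose promoter drives the recombinase, was at 81.9 to 98.3 TPM in WT and 34.9 to 59.6 TPM in dKO testes. In testes the sum of 10 macrophage markers was 131 to 153 in WT and 156 to 191 in the dKO. In sorted cells the germ cell markers summed to 3113 to 3130 TPM in WT and 2127 to 2132 in the dKO. Singly, 4 of these 14 (Tex101, Rhox13, Sycp1 and Dppa4) were lower in both dKO libraries, 4 (Mael, Zbtb16, Sohlh1 and Nanos3) were higher and 6 overlapped, and Tex101 alone went from 1576 to 1591 TPM in WT to 628 to 651 in the dKO. Over the same libraries the Sertoli markers summed to 327 to 340 and 440 to 628 TPM. The peritubular sum was 18.95 to 21.97 and 6.08 to 7.76 TPM, carried by Mylk (13.8 to 14.3 and 2.32 to 3.70), while Cnn1 and Des were at 0 in WT and detected in both dKO libraries. Of 7 endothelial markers 6 were at 0 in sorted WT cells, so the WT sum of 102 to 123 TPM was Egfl7 alone (72.2 to 95.1 in the dKO), and Cdh5, Tek and Esam were detected in the dKO at up to 2.64 TPM. The Leydig markers overlapped. All 10 macrophage markers were at 0 in sorted WT cells, against a sum of 59.9 to 67.5 TPM in the dKO. The number of genes with at least 1 count also moved with the genotype. It was 17106 and 15587 in sorted WT cells and 21404 and 20194 in sorted dKO cells, which touches each value at 0 in sorted WT, that of Prmt2 included, and 22341 to 22555 in WT testes and 24052 to 24487 in dKO testes. The part of these shifts in the members' values was not tested.

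**Figure D3:**
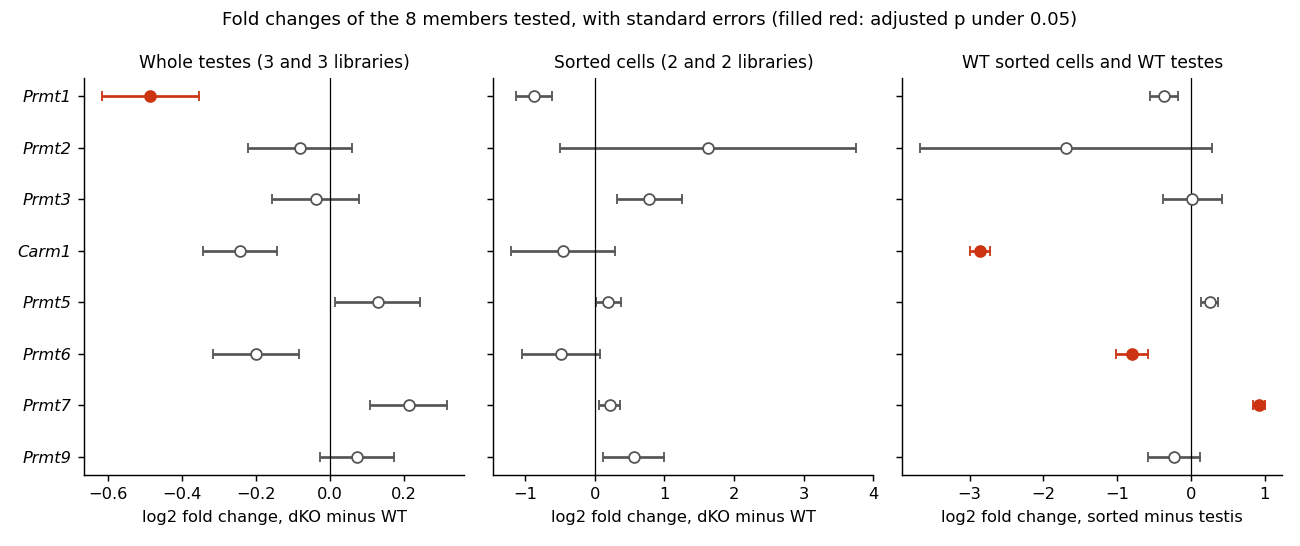
Log2 fold changes of the 8 members tested in each comparison, with bars of 1 standard error. Filled red points passed at an adjusted p under 0.05. Prmt1 was the only member to pass between genotypes in testes, no member passed in sorted cells, and Carm1, Prmt6 and Prmt7 passed between sorted cells and testes of WT.

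Which enzyme is expressed in the GFP-positive cells was read from sorted WT cells against WT testes. Prmt7 was higher in sorted cells (log2 fold change 0.92, SE 0.09, adjusted p = 0.00175, edgeR). Carm1 was 7.25-fold lower (-2.86, SE 0.14, adjusted p = 0.000674, edgeR) and Prmt6 was lower too (-0.80, SE 0.22, adjusted p = 0.0326). Of 16872 genes, 24.0% passed as higher and 33% as lower, with a median of -0.39, so that 1 higher and 2 lower of 8 members was not more than the share over all genes. Prmt1 had -0.37 (adjusted p = 0.172, edgeR), Prmt5 0.25 (adjusted p = 0.120), Prmt3 0.02 and Prmt9 -0.22, none of which passed. Sorting, cell number and library preparation differ between the assays together with the cells, and these cannot be told apart. The calls also depended on the fit. Leaving out any WT testis library in turn left 1 member higher and 1 lower, so 1 of the 2 lower calls was lost each time. With the replicate block 0 members and 0 genes passed. Without the first sorted WT library 7 of 8 members and 89.6% of all genes passed, and without the second 6 members and 87.5%.

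No member passed the test of whether the genotype effect differed between the assays. Over 19608 genes 14.7% had a higher and 4.24% a lower effect in sorted cells, against 0 of 8 members. The difference was 0.91 for Prmt3 (unadjusted p = 0.0746, edgeR) and -0.31 for Prmt1 (unadjusted p = 0.313). This does not show that the effects were alike, and 3 of 9 members passed without the first sorted WT library, with 41.5% of all genes, and 1 without the second, with 35.5%.

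Of 10 partner genes, Mettl23, itself a histone arginine methyltransferase, was higher in dKO testes (log2 fold change 0.59, adjusted p = 0.0280, edgeR) and the other 9 did not pass, beside 10.6% of all genes higher and 8.51% lower. The list's median was 0.02, as over all genes. By mean TPM over all 10 RNA libraries the leading partners were Coprs (260), which recruits Prmt5 to histones, Sf3b2 (249), the substrate of Prmt9, Clns1a (118), a substrate adaptor of Prmt5, and Wdr77 (109), its obligate cofactor. This order mixes the assays, and in WT testes Coprs (73.1) was below Sf3b2 (183), Clns1a (107) and Wdr77 (82.6). In sorted dKO cells 0 of 10 passed (median 0.10). All 10 differed between sorted and whole-testis WT, a comparison in which 56.9% of all genes passed in either direction. Coprs (3.21), Mettl23 (2.33), Ndufaf7 (2.12), Clns1a (1.06), Wdr77 (0.90) and Sf3b2 (0.53) were higher in sorted cells. Btg2 (-1.89) and Btg1 (-1.21), antiproliferative proteins that bind Prmt1, were lower, as were Fbxo11 (-1.81) and the Prmt5 adaptor Riok1 (-0.56). The median of the partners was 0.72 against -0.39 over all genes. In sorted WT cells Coprs was at 470 to 570 TPM, against 64.6 to 86.7 TPM in WT testes.

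Of 6 genes listed here as readers of methylarginine, Phf1 was higher (0.63, adjusted p = 0.00479, edgeR) and Phf19 lower (-1.05, adjusted p = 0.0127) in dKO testes, beside the same shares of all genes. Both are Tudor proteins of Polycomb complexes, and whether they read methylarginine was not tested. The other 4 listed, Smn1, Smndc1, Snd1 and Tdrd3, did not pass. Over all 10 libraries the highest means were those of Smndc1 (62.9 TPM), Snd1 (54.0), Smn1 (48.7) and Phf1 (18.9). Snd1 led in WT testes (85.7) and Smndc1 in sorted WT cells (81.9). Snd1 (-1.77) and Phf1 were lower and Smndc1 (0.77) higher in sorted WT cells than in WT testes. Phf1 was listed at 0 and at 1.10 TPM in sorted WT cells and at 24.2 to 24.4 TPM in WT testes, so its fitted fold change is not given. These 3 of 6 stand beside 56.9% of all genes. The medians were -0.12 in testes, 0.16 in sorted cells, where 0 of 6 passed, and -1.02 between the WT assays.

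Of 13 genes for the methyl donor and for turnover of methylarginine, 10 were tested in testes, where 1 was higher and 2 lower, beside 10.6% and 8.51% of all genes. Jmjd6, a JmjC-domain oxygenase, was higher in dKO testes (0.60, adjusted p = 0.00740, edgeR). Ddah1, which hydrolyses free asymmetric dimethylarginine, was lower (-0.53, adjusted p = 0.0188), as was Mat2a, which makes S-adenosylmethionine (-0.36, adjusted p = 0.0420). Mat2a (239 TPM), Ahcy (121), which clears S-adenosylhomocysteine, Mat2b (119) and Ddah2 (75.8) led by mean TPM over all 10 libraries. In sorted WT cells Ahcy (48.0) and Ddah2 (23.1) were below Mat2b (144). In sorted cells 0 of 9 tested passed, with a median of 0.68 against 0.15 over all genes. Between the WT assays Mat2b (0.85) was higher in sorted cells, and Padi2 (-3.11), Ddah1 (-2.93), Ddah2 (-1.82) and Ahcy (-1.48) were lower, 5 of 9 tested beside 56.9% of all genes, with a median of -0.06.

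The 5 genes whose log2 CPM profile lay nearest to that of Prmt1, after centring within each assay over the 10 RNA libraries, were Gins2, Shkbp1, Chmp6, Pigs and Keap1. Their root mean square differences ran from 0.128 to 0.148 log2 units among 11166 candidates. The profile includes the genotype contrast, so these are a description only.

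At P7 and P14 the promoters were read from summits within 3000 bp of any annotated transcript start, and a member was called marked where at least 2 lists of a group held such a summit. H3K4me3, a mark of active promoters, was found at P7 on all members but Prmt8 and at P14 on all 9, against 60.7% and 63.1% of 21951 protein-coding genes and 88.8% and 89.9% of those at 1 TPM or more in WT testes. H3K27ac, a mark of active promoters and enhancers, was found on the same 8 members at both ages, against 31.0% and 48.9%, or 47.5% and 73.2% of those expressed genes. Arginine marks covered 17 of 45 pairs of member and mark at P7 and 40 of 45 at P14 in WT.

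H4R3me2a was on Prmt1, Prmt2, Carm1 and Prmt9 at P7 (15.3% of protein-coding genes) and on all 9 members at P14 (49.0%). H3R8me2a was on the same 4 members at P7 (9.71%) and on all but Prmt6 and Prmt7 at P14 (33%). H3R2me2a was on Prmt2 and Carm1 at P7 (11%) and on all 9 at P14 (51.3%). H4R3me1 was on Prmt2, Carm1 and Prmt8 at P7 (10.8%) and on Prmt1, Prmt2, Prmt3, Carm1, Prmt7 and Prmt9 at P14 (29.9%). H4R3me2s in WT was on Prmt1, Prmt3, Carm1 and Prmt8 at P7 (17.8%) and on all 9 at P14 (34.2%). This mark had 2 lists at P7 and 3 at P14, so the rule asked for every list at P7 only, and members with a summit in every list numbered 4 at each age. For each of these marks the share of all protein-coding genes was also higher at P14 than at P7. Members with several starts have wider windows than genes with a single start, and protein-coding genes at 1 TPM or more in WT testes were marked more often than all (14.3% to 26.5% at P7 and 43.3% to 69.5% at P14 for the arginine marks). List lengths ran from 15361 to 55908 entries, and at equal length the pairs numbered 14 and 27. With entries held to a q of at most 0.01, they fell to 2 of 45 at P7 and 19 of 45 at P14. Few entries of the P7 arginine lists reached that q, for example 1773 of 16995 in the first H4R3me2a list. The share of all protein-coding genes was not taken at these settings, so these counts show nothing particular to the members. The depth behind the lists is unknown. The P14 H4R3me2s lists carry a different age mark in their entry names than in their labels, and 31 of 36 pairs were marked at P14 without them.

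**Figure D4:**
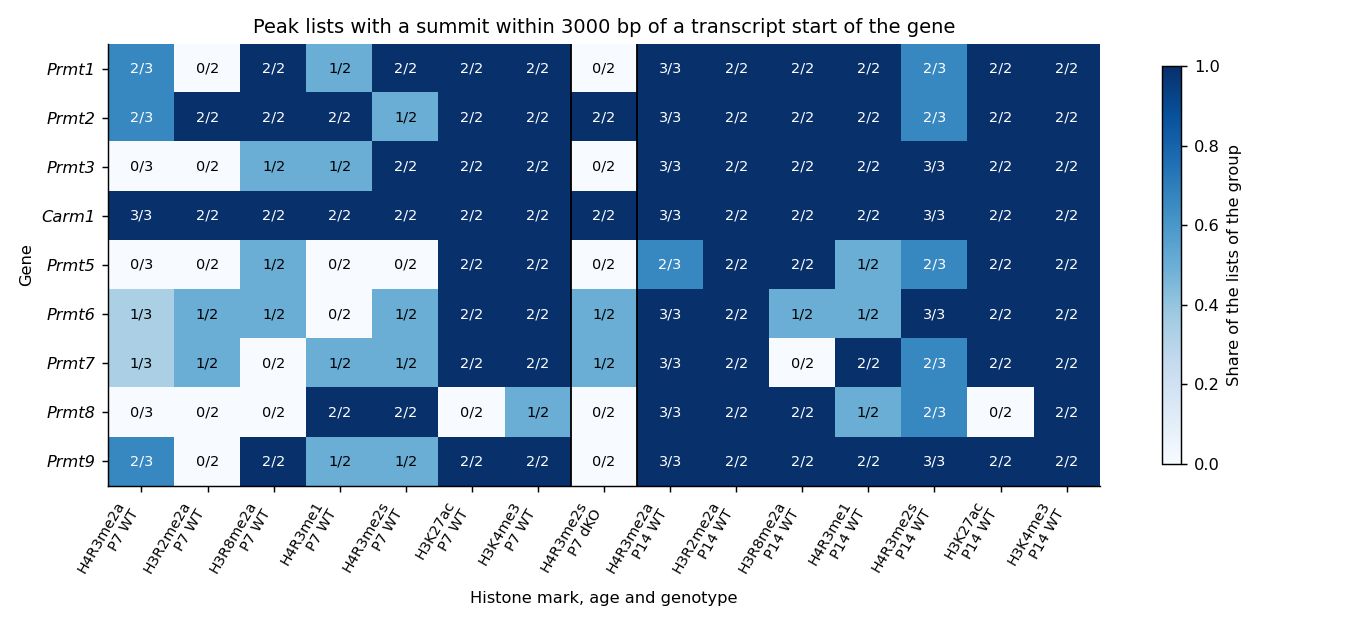
Share of the lists of each mark, age and genotype that held a summit within 3000 bp of a start of each member. H3K4me3 and H3K27ac filled nearly every cell at both ages, and arginine marks filled 17 of 45 pairs at P7 and 40 of 45 at P14 by the count of at least 2 lists.

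Carm1 stood apart from the other members. Carm1 held a summit in 11 of 11 WT lists of arginine marks at P7 and in 12 of 12 at P14, and in all 33 lists together. With entries held to a q of at most 0.01, it kept 6 of the 11 lists at P7 and 12 of 12 at P14. Only 115 of 21951 protein-coding genes, 0.524%, had a summit in every list, and 165, 0.752%, in all 23 WT lists of arginine marks. The second P7 list of H4R3me2a held a summit at Carm1 and at no other member. In each of the 33 lists a summit lay 257 to 797 bp before the first Carm1 start at chr9:21546894, with a median of 493 bp. The 151 bases around the median summit, chr9:21546326-21546476 on the plus strand of GRCm38.p6, are shown because each mark had a summit there in some list. The 33 summits span 540 bp, and those farthest from the median lie outside this window. The window held no GC box.
Carm1 summit region: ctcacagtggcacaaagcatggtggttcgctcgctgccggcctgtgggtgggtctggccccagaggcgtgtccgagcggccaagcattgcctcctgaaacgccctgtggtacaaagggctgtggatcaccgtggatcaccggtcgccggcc

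Arginine mark lists with a summit numbered 7 of 11 at P7 and 11 of 12 at P14 for Prmt1, 9 and 11 for Prmt2, 4 and 12 for Prmt3, 6 and 12 for Prmt9, and 4 and 10 for Prmt6. Prmt7 had 4 and 9. Prmt5 had 1 and 9, and its single P7 entry, H3R8me2a, had q = 0.490. Over all protein-coding genes the medians were 2 and 5 lists, and over those at 1 TPM or more 3 and 8. Prmt5, with 1 list at P7, was therefore below the median of expressed genes and at their lower quartile of 1. Its mean RNA was close to that of Carm1 in WT testes (55.5 and 56.0 TPM) but not in sorted WT cells (52.5 and 13.5 TPM). The start of Prmt7 lies 1 bp from that of Slc7a6os on the other strand, so summits there belong to both promoters. Gm15545 starts 332 bp from Prmt1 and C130013H08Rik 978 bp from Prmt6, each on the opposite strand.

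Prmt1 held H3K4me3 at 122 and 129 bp past the start of Prmt1-213 at P7. Most of its arginine summits lay on either side of the first starts, for example 145 bp before Prmt1-202 and 149 bp past Prmt1-213 for H4R3me2a at P7. Prmt8, with almost no RNA, held arginine summits in 4 of 11 lists at P7 and 10 of 12 at P14, no H3K27ac summit, and H3K4me3 in 1 of 2 lists at P7 and 2 of 2 at P14. All its summits lay inside the gene, 659 to 1845 bp past its start, and with a window of 1000 bp none of the arginine summits was left. Gm42738, an antisense gene listed at 0 TPM in all libraries, starts 1930 bp from Prmt8.

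**Figure D5:**
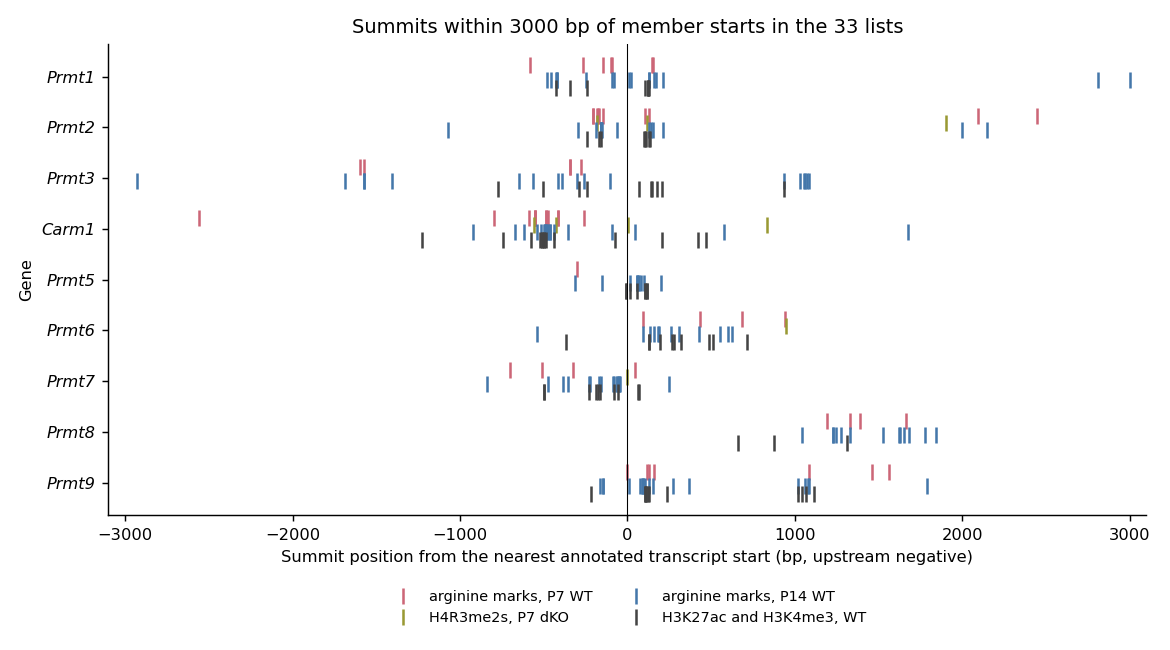
Position of every summit within 3000 bp of a member start in the 33 lists, in bp from the nearest annotated start, upstream negative. In all 33 lists a Carm1 summit lay before the first start, with others elsewhere in the window, and Prmt8 summits lay only inside the gene, from 659 bp onward.

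The Prmt1-dKO genotype was set against WT for H4R3me2s, the symmetric mark at the histone arginine of H4R3me2a, in the P7 lists. In WT 4 of 9 members were marked and in the dKO 2 of 9, against 17.8% and 9.82% of protein-coding genes. Carm1 was marked in both. Prmt1, Prmt3 and Prmt8 were marked in WT alone, and Prmt2, with 1 of 2 WT lists and 2 of 2 dKO lists, in the dKO alone. The WT entries on Prmt1 had q = 0.631 and 0.0265. On Prmt2 the WT entry had q = 0.000287, whereas the dKO entries had q = 0.291, 0.306 and 0.968, so by q the strongest Prmt2 entry was in WT. With 2 lists a genotype and unknown depth, this was not tested, and 2 members were marked in WT at equal list length or with the window of 1000 bp.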

How the data were processed

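RNA libraries of P7 whole testes (3 WT, 3 dKO) and GFP-sorted cells (2 WT, 2 dKO) were quantified by the authors with RSEM. The deposited gene tables hold expected counts, TPM, FPKM (not used here) and estimated transcript lengths, and expected counts were rounded here. Totals were 12396345 to 16598249 counts in testes and 15610392 to 18547103 in sorted cells. Counts were tested with edgeR 4.0.16 (R 4.3.3; TMM scaling, filterByExpr, quasi-likelihood test, Benjamini-Hochberg adjustment over all genes tested, threshold 0.05) within each assay, and the effects were compared between assays in a joint fit with an interaction term. DESeq2 1.42.0, RLE factors, no filter, a replicate block, both assays in 1 fit and leaving out each library were alternatives.

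Per the labels, reads were trimmed with fastp 0.23.2 and CUT&Tag peaks were called per sample on mm10 with MACS2 2.1.0. The deposited peak lists give fold enrichment as a ratio and −log10 p and q values. They carry no depth, so fold enrichments were not compared between lists. Alternatives were a window of 1000 bp, a q of at most 0.01, lists cut to 15361 entries and leaving out a list. Transcript starts came from GENCODE vM21, which matched 55141 of 55401 gene identifiers, and sequences from RefSeq GRCm38.p6.

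The 9 members were given, and the partner, reader and donor lists named all genes that passed plus the 4 with the highest mean TPM. Members and lists were chosen with earlier results of these data known. The test scripts were checked on simulated data.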

Additional observations from a re-analysis of the deposited data

Results flagged for a closer look

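In 4 genes among the 10 partner, 6 reader and 11 donor genes tested the genotype effect differed between sorted cells and testes by the interaction term of the edgeR fit. Over all genes 19% passed. The log2 fold change in sorted cells minus that in testes was 2.95 for Ddah1 (SE 0.33, adjusted p = 0.000538), 1.88 for Btg2 (SE 0.34, adjusted p = 0.00569), 1.05 for Ahcy (SE 0.17, adjusted p = 0.00342) and 0.66 for Mat2a (SE 0.16, adjusted p = 0.0183). Ddah1 was at 5.63 to 14.1 TPM in sorted WT cells and 21.1 to 24.1 TPM in sorted dKO cells, against 38.7 to 40.6 and 19.04 to 28.6 TPM in WT and dKO testes. No family member passed this test.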

How the results depend on the processing

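In testes, where 3158 genes and 1 member passed, the replicate block gave 1828 and 0, both assays in 1 fit 65 and 0, and leaving out a library 1365 to 5362 and 0 to 1. Adjusted p of Prmt1 was 0.0814 with the block and 0.239 with both assays in 1 fit. In sorted cells (0 genes, 0 members) DESeq2 gave 2460 and 1, both assays in 1 fit 5440 and 1, and leaving out a library 0 to 9191 and 0 to 3. For sorted against whole-testis WT (9602 and 3) the block gave 0 and 0, and leaving out a library 6774 to 16233 and 2 to 7. For the interaction (3722 and 0) the block gave 2304, and leaving out a library 2590 to 8886 and 0 to 3. After centring within each genotype, same-numbered libraries correlated by 0.0825, -0.221 and -0.119 in testes and by 0.0177 in sorted cells. With 2 libraries a group, centring forces same and crossed numbers to 1 size, 0.0177 and -0.0177, so the sorted values cannot show a pairing. A shared litter or batch was not tested.

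Some member fold changes changed sign. Leaving out a library took Prmt2 (-0.20 to 0.051) and Prmt3 (-0.12 to 0.031) across 0 in testes, and Prmt3 (-0.79 to 0.44) and Prmt9 (-0.92 to 0.14) across 0 in sorted against whole-testis WT. There Prmt3 was also -0.048 with RLE factors, -0.035 without the filter, -0.17 with the block and -0.055 with DESeq2. For the interaction, leaving out a library gave Prmt1 -0.54 to 0.0070, Carm1 -0.51 to 0.19, Prmt5 -0.023 to 0.29, Prmt6 -0.39 to 0.033 and Prmt7 -0.076 to 0.18, and RLE factors gave Prmt7 -0.041. Of the other member fold changes 286 kept their call, 17 became called and 13 lost it. The causes were not tested.

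Arginine pairs at a q of at most 0.01 were 2 at P7 and 19 at P14. No share over all genes was taken at the alternative peak settings. WT H4R3me2s at P7 marked 2 members with a window of 1000 bp, 1 at a q of at most 0.01, 2 at equal length and 5 to 7 leaving out a list, and dKO H4R3me2s 0 at a q of at most 0.01. Members with separate groups numbered 6 in testes and 4 in sorted cells on counts over the library total, against 5 and 8 on TMM-scaled CPM. That scale and the alternative without the P14 H4R3me2s lists were chosen after seeing the data.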
